A study of Mus musculus with 12 samples.

Results

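The nuclear-encoded subunits of the respiratory chain were followed in tumour-associated macrophages (TAMs) that had or had not taken up a fluorescent nanoparticle in a living glioma. Members were the rows of the count table whose gene symbols begin as those of complex I (Nduf with a subunit letter and number), complex II (Sdha to Sdhd), complex III (Uqcr), complex IV (Cox4 to Cox8) and complex V (Atp5). By this rule 97 of 54532 rows belonged to the set: 41 for complex I, 4 for complex II, 10 for complex III, 19 for complex IV and 23 for complex V. Of these, 85 had enough counts to be tested, and 12 did not.

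The respiratory chain sits in the inner mitochondrial membrane. Complex I takes electrons from NADH and complex II takes them from succinate. Complex III passes them from ubiquinol to cytochrome c, and complex IV passes them on to oxygen. The protons pumped by complexes I, III and IV drive complex V, the ATP synthase. A few catalytic subunits are encoded by mitochondrial DNA, and the many others are encoded in the nucleus, made in the cytosol and imported. In macrophages, reliance on this pathway is known to vary with activation state.

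The rhodamine-positive group held 6 libraries and the rhodamine-negative group 6, and each of 6 mice gave 1 library to each group. All mice carried gliomas and the genotype Ntv-a_Ink4a/Arf_KO, in which a Nestin-driven receptor for avian retroviral vectors is combined with loss of the tumour suppressors Ink4a and Arf. All were injected into a vein with Rhodamine_PFCE_NP, a rhodamine-labelled perfluoro-crown-ether nanoparticle, so rhodamine-negative cells came from injected mice too, and tumours were taken after 24 hours. The sort kept CD45-positive, CD11b-positive, Ly6C-negative cells, more than 2000 per library. The deposited design names Ly6C in both of its negative terms, and whether another marker was meant is not known. Mice 1 to 4 were male and mice 5 and 6 female, and their ages are not given in the sources used here. Polyadenylated RNA was sequenced to 13073189 to 17379314 counts per library.

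The label of the cells was checked against marker lists. The summed level of 8 macrophage markers was 11915 to 14284 CPM (counts scaled to a common library size) in rhodamine-positive libraries and 5814 to 11713 CPM in rhodamine-negative libraries, and none was at 0 in every library. Of these 8, 4 were called higher in rhodamine-positive sorts and none lower. The sum of 8 dendritic cell markers was 164 to 283 CPM in rhodamine-positive and 412 to 1485 CPM in rhodamine-negative libraries, with 8 of 8 called lower in rhodamine-positive sorts. Monocyte markers summed to 44.1 to 110 CPM in rhodamine-positive and 233 to 590.3 CPM in rhodamine-negative libraries, with 3 of 5 called lower. For the sort gate 5 genes were listed: Ptprc, Itgam, Ly6c1, Ly6c2 and Ly6g. They summed to 515 to 752 CPM in rhodamine-positive and 663 to 814 CPM in rhodamine-negative libraries. Of these 5 genes 3 were tested, with none called higher and 1 called lower. Beside these counts, 13.1% of all genes tested were called higher in rhodamine-positive sorts and 13.2% lower.

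Most respiratory chain subunits were higher in nanoparticle-positive TAMs, each by a small step. Of 85 tested, 62 rose, 1 fell (Cox6b2) and 22 did not pass (edgeR's quasi-likelihood test with the mouse as a block, p-values adjusted by Benjamini-Hochberg over 15014 genes, threshold 0.05). Over all genes tested, 13.1% were called higher and 13.2% lower. The median log2 fold change was 0.36 for the 85 subunits and -0.020 for all genes. The estimate was above 0 in 82 of 85 subunits and in 48.2% of all genes, the exceptions among subunits being Ndufa6, Cox7a2l and Cox6b2. Estimates of the 62 ran from 0.24 to 0.65 on the log2 scale, and 61 of them lay under 1.5-fold. A further 9 subunits had an adjusted p between 0.05 and 0.1, so the count rests partly on where the threshold stands.

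The number called depended on the scaling and on the pairing. With scaling to library size alone, in place of the trimmed mean of M values (TMM), 21 subunits and 5.73% of all genes were called higher. That scaling put the median of all genes at -0.18 and that of the subunits at 0.20, and it changed the split over all genes to 861 higher and 3137 lower, against 1973 and 1988. Without the mouse as a block 35 subunits and 8.47% of all genes were called higher. Without mouse 6 there were 37 subunits and 9.34% of genes, and without mouse 1 there were 68 and 10.8%. The call held without each mouse in turn for 37 of the 62. Stricter thresholds gave 32 subunits and 6.2% of genes at an adjusted p of 0.01, and 10 subunits and 4.49% of genes against a minimum fold of 1.2. Other tools gave 65 subunits and 13.4% of genes (DESeq2), 63 and 13.7% (limma-voom), and 59 of 83 and 14.8% (limma on the deposited log2 table). RLE scaling gave 62 subunits and 12.7% of genes, no filter 63 of 91 and 5.37%, a minimum count of 50 gave 57 of 78 and 15%, and offsets for length or for length and GC content gave 73 and 24.3% or 72 and 24.8%.

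**Figure D1:**
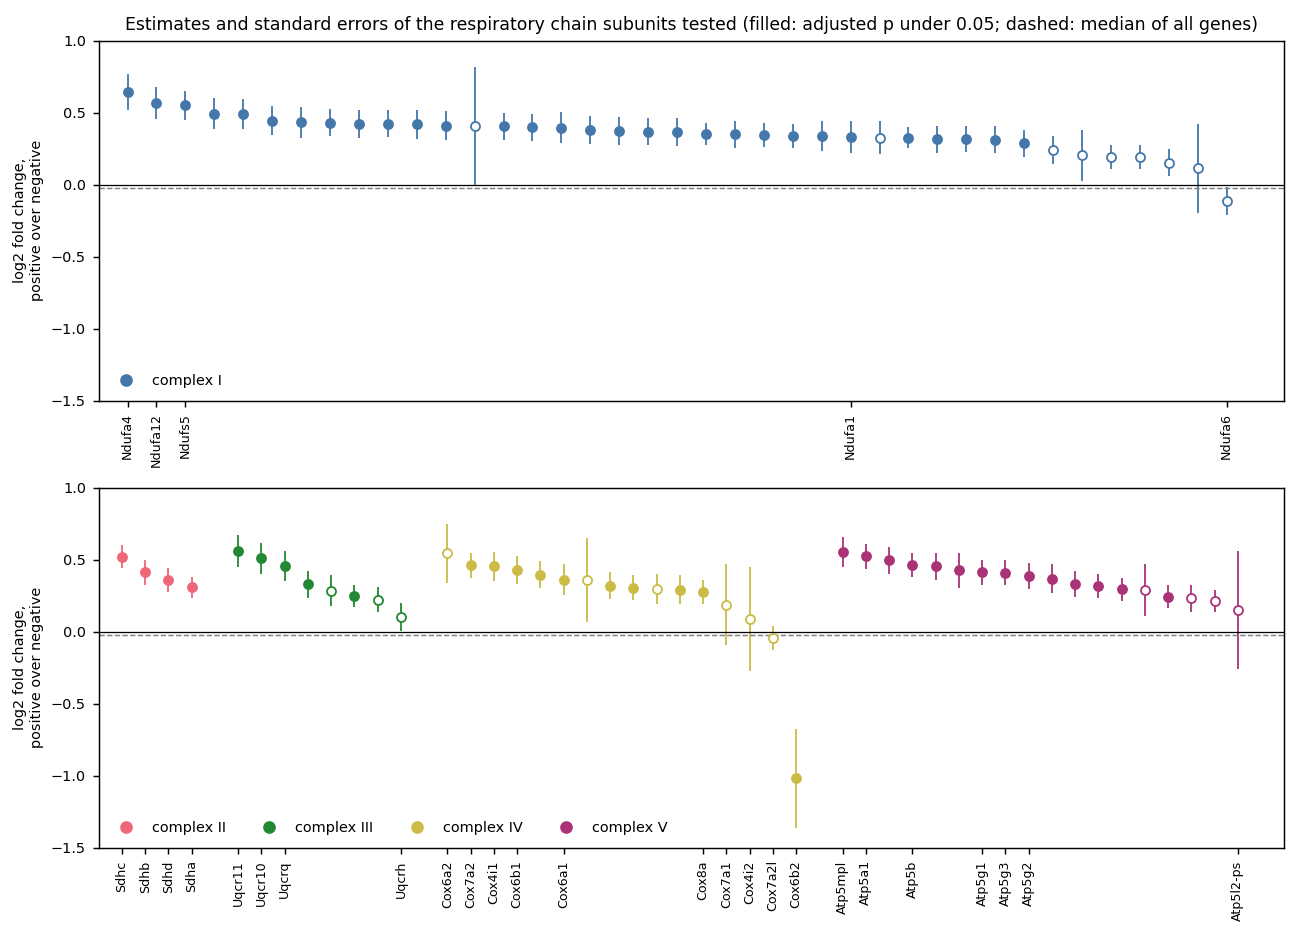
Log2 fold change (rhodamine-positive over rhodamine-negative) of each of the 85 subunits tested, by complex, with its standard error as a bar. Filled points passed the test, and only the named members carry a label. Nearly all points lie above the dashed line that marks the median of all genes at -0.020, and Cox6b2 is the 1 filled point below it.

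The pairs were then read mouse by mouse. In 53 of 85 subunits the rhodamine-positive library was the higher of the pair in 6 of 6 mice, which held for 14.2% of all genes tested. Groups did not overlap for 6 subunits, Ndufa4, Ndufs5, Ndufs7, Sdha, Atp5a1 and Atp5g2, and for 4.14% of all genes in this direction. At a mean of at least 10 CPM, this held for 6 of 76 subunits and 574 of 8818 genes, which are similar shares. The gap was narrow for Ndufs7 and Atp5g2. Their lowest rhodamine-positive libraries had 133.2 and 140.2 CPM, and their highest rhodamine-negative libraries 133.1 and 139.9 CPM. The calls sat at the higher levels. All 62 called higher were among the 76 subunits with a mean of at least 10 CPM, where 20.3% of all such genes were called higher, and none was among the 9 subunits below it.

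The subunits took 1.09%, 1.27% and 1.43% of counts (lowest, median, highest) in rhodamine-positive libraries and 0.923%, 1.09% and 1.30% in rhodamine-negative libraries. The share was higher in the rhodamine-positive library of 6 of 6 mice. In mouse 1 it was nearly level, at 1.31% in the rhodamine-positive and 1.30% in the rhodamine-negative library. By complex, the share was higher in 6 of 6 mice for complexes II and V and in 5 of 6 for complexes I, III and IV. In mouse 1 the shares of complexes I, III and IV were lower in the rhodamine-positive library. In sorted bulk samples, more cells with high levels and more RNA per cell cannot be told apart.

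Upstream sequence was taken for the 67 of 85 tested members that have a window in RefSeq (GRCm38.p6), from 250 bases before to 50 after the start. Several fixed motifs of factors known to act on respiratory genes were searched on both strands. The letters GCATGCGC, the core of the NRF-1 site, stood in 14.9% of these members and in 5.82% of the 10197 tested genes with a window. The full NRF-1 palindrome, which is the core preceded by GC, stood in 7.46% of members and 2.29% of tested genes. The ETS letters CCGGAAG, read by the GABP factor, stood in 23.9% of members and 20% of tested genes. The YY1 letters AAGATGGC were in 14.9% of members and 5.36% of tested genes, and the ERR letters AAGGTCA in 11.9% of members and 4.08% of tested genes. Members had 1.07 windows per gene and tested genes 1.28. These shares describe letters in a window and not bound sites.

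Calls were then counted in members with and without these letters, with no test. Of 10 members with the NRF-1 core 8 were called higher, and of 57 without it 45 were. Of 16 members with the ETS letters 14 were called higher, and of 51 without them 39 were. With the full palindrome 5 of 5 were called higher, and 48 of 62 without it. With the YY1 letters 9 of 10 were, and 44 of 57 without them. With the ERR letters 6 of 8 were, and 47 of 59 without them. The median log2 fold change was 0.37 with the NRF-1 core and 0.34 without it, and 0.37 with the ETS letters and 0.34 without them. It was 0.39 with the palindrome and 0.34 without it, 0.37 with the YY1 letters and 0.34 without them, and 0.35 both with and without the ERR letters. The 120 bases before the RefSeq start are shown for 3 members that rose and 2 that did not pass, with the letters of the NRF-1 core (or the full palindrome) or of the ETS motif in capitals on either strand. In the stretches shown, Atp5g2, Sdhb and Ndufa6 carry the NRF-1 core, and Uqcr11 and Uqcrh the ETS letters, so the same letters stand before members that rose and members that did not pass.
Atp5g2 (chr15:102671048-102671167, minus strand): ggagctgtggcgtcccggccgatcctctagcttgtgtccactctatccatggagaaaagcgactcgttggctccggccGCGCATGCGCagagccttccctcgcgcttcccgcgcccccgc
Sdhb (chr4:140961151-140961270, plus strand): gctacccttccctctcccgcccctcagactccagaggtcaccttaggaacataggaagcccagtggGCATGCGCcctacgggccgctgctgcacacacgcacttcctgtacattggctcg
Ndufa6 (chr15:82354292-82354411, minus strand): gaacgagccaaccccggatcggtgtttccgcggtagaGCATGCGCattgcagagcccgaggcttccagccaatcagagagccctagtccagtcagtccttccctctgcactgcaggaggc
Uqcr11 (chr10:80406822-80406941, minus strand): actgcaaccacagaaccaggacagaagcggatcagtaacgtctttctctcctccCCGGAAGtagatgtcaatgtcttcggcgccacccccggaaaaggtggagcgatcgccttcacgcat
Uqcrh (chr4:116075071-116075190, minus strand): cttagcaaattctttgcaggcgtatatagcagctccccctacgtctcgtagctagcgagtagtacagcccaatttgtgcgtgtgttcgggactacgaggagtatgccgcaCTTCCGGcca

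Complex I, the NADH dehydrogenase, had 39 tested members, of which 30 rose and none fell, with a median log2 fold change of 0.37. Beside this, 13.1% of all genes tested were called higher and 13.2% lower. Ndufa4 (chr6:11900292-11907497 in GRCm38, the build of all gene positions given), first described in complex I and now regarded as a complex IV subunit, had the largest estimate among the 62 that rose. It had 127, 136 and 158 CPM (lowest, median, highest) in rhodamine-positive libraries, against 52.4, 89.3 and 125 CPM in rhodamine-negative libraries. Every rhodamine-positive library lay above every rhodamine-negative one, and the log2 fold change was 0.65 ± 0.12 (SE; edgeR's quasi-likelihood test, adjusted p = 0.00298).

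Ndufs5 (chr4:123712710-123718202), an accessory subunit, had 93.5, 106 and 121 CPM in rhodamine-positive libraries and 56.7, 71.0 and 90.4 CPM in rhodamine-negative libraries. The groups did not overlap, and the log2 fold change was 0.55 ± 0.10 (SE; edgeR, adjusted p = 0.00213). Ndufa12, another accessory subunit, had 80.2, 95.1 and 134 CPM in rhodamine-positive and 46.8, 67.7 and 81.6 CPM in rhodamine-negative libraries. Its groups overlapped by a single step between the lowest positive and the highest negative library, and it rose by 0.57 ± 0.11 (SE; edgeR, adjusted p = 0.00292). Ndufa1, a small subunit of the membrane arm, had 133, 172 and 196 CPM in rhodamine-positive and 90.8, 128 and 202 CPM in rhodamine-negative libraries. It was higher in 4 of 6 mice and passed narrowly, at 0.33 ± 0.11 (SE; edgeR, adjusted p = 0.0427). It did not pass with library size alone, without the block, or without any one of mice 2, 3, 5 and 6.

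Among subunits of the catalytic core, most of which bind the flavin or iron-sulfur clusters, Ndufs1, Ndufs3, Ndufs7, Ndufs8 and Ndufv2 rose, at 0.31 to 0.40. Ndufs1 held its call without each mouse in turn, whereas the others named here lost it without mouse 6. Ndufv1, the flavin-binding subunit that takes electrons from NADH, had 73.9, 92.2 and 106 CPM in rhodamine-positive and 73.4, 80.0 and 90.1 CPM in rhodamine-negative libraries, with an estimate of 0.19 ± 0.08 (SE; edgeR, adjusted p = 0.0993).

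Ndufa6, an accessory subunit of the matrix arm, had the lowest estimate in complex I. It had 69.7, 76.0 and 84.2 CPM in rhodamine-positive libraries, against 69.8, 81.3 and 108 CPM in rhodamine-negative libraries. The groups overlapped fully and its estimate was -0.11 ± 0.10 (SE; edgeR, adjusted p = 0.424), with rhodamine-positive higher in 2 of 6 mice. With an offset for gene length its estimate was 0.0031, while the median of all genes was 0.12. The other members of complex I that did not pass were Ndufb2, Ndufb3, Ndufc2, Ndufs4, Ndufb1-ps and the pseudogene copies Ndufb4c and Ndufs6b, with estimates from 0.11 to 0.41. Of these, Ndufc2 had an adjusted p of 0.0512 and Ndufb3 of 0.0914.

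All 4 subunits of complex II, succinate dehydrogenase, rose, where 13.1% of all genes tested were called higher. It is the complex shared with the citric acid cycle. Sdha, the flavoprotein that oxidises succinate, had 280, 311 and 344 CPM in rhodamine-positive libraries, against 223, 259 and 276 CPM in rhodamine-negative libraries. The groups did not overlap, although the estimate was the lowest of the 4, at 0.31 ± 0.07 (SE; edgeR, adjusted p = 0.00965). Sdhb, the iron-sulfur subunit, had 249, 284 and 314 CPM in rhodamine-positive and 164, 222 and 252 CPM in rhodamine-negative libraries. Its groups overlapped by a narrow margin, and it rose by 0.41 ± 0.09 (SE; edgeR, adjusted p = 0.00479).

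The membrane anchors of complex II, which hold the ubiquinone site, both rose. Sdhc (chr1:171127165-171150603) had 85.8, 102 and 111 CPM in rhodamine-positive and 58.3, 69.5 and 86.8 CPM in rhodamine-negative libraries. The top rhodamine-negative library only just exceeded the bottom rhodamine-positive one, and the log2 fold change was 0.52 ± 0.08 (SE; edgeR, adjusted p = 0.000837). Sdhd had 191, 223 and 235 CPM in rhodamine-positive and 131, 179 and 209.9 CPM in rhodamine-negative libraries, with a log2 fold change of 0.36 ± 0.08 (SE; edgeR, adjusted p = 0.0081). With library size alone Sdha and Sdhd did not pass (estimates 0.15 and 0.20) and Sdhb and Sdhc did.

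Per kilobase of exon, subunits of complex II stood at unlike levels within each sort. The median was 75.4 RPKM (CPM per kilobase) for Sdha, 127 for Sdhb, 31.3 for Sdhc and 181 for Sdhd in rhodamine-positive libraries, against 62.6, 99.1, 21.4 and 145 RPKM in rhodamine-negative libraries. The order Sdhd, Sdhb, Sdha, Sdhc was the same in both sorts. It rests on union exon lengths of 1231, 2239, 4126 and 3250 bases, and by median CPM Sdha stood highest. Sdhc, the lowest per length, had the largest estimate of the 4.

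**Figure D2:**
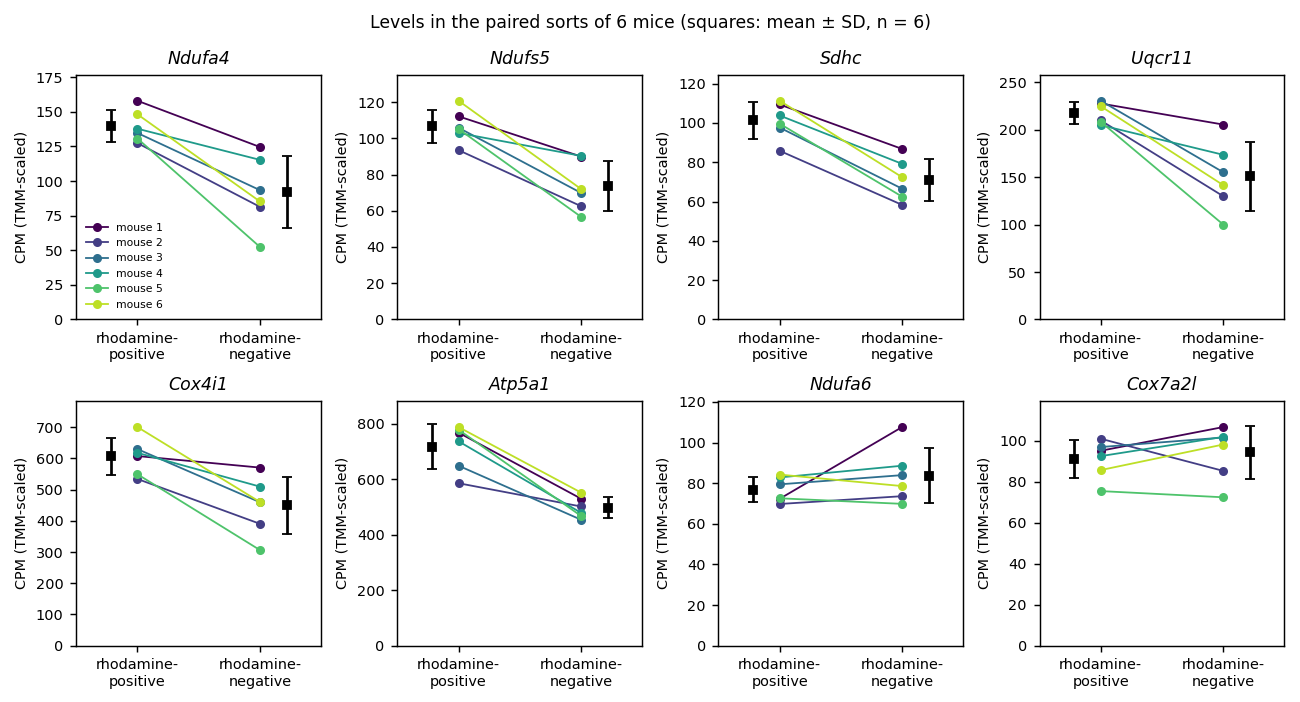
TMM-scaled CPM of 8 subunits in the rhodamine-positive (left) and rhodamine-negative (right) library of each mouse, joined by a line, with the mean ± SD of each sort as a square (n = 6). Lines fall from left to right in 6 of 6 mice for Ndufa4, Ndufs5, Sdhc, Uqcr11, Cox4i1 and Atp5a1, and in 2 of 6 mice for Ndufa6 and Cox7a2l.

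Complex III, the ubiquinol-cytochrome c reductase, had 8 tested members, of which 5 rose, with a median log2 fold change of 0.31. Of all genes tested, 13.1% were called higher. Uqcr11 (chr10:80402997-80406830), a small supernumerary subunit, had 205, 217 and 231 CPM in rhodamine-positive libraries and 100.1, 149 and 206 CPM in rhodamine-negative libraries. Rhodamine-positive libraries lay within a narrow band, rhodamine-negative ones spread over a wide one, and the ranges touched at 1 library. The log2 fold change was 0.56 ± 0.11 (SE; edgeR, adjusted p = 0.00376).

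Uqcr10 and Uqcrq, small subunits that also surround the catalytic core, rose by 0.51 ± 0.11 and 0.45 ± 0.10 (SE; edgeR, adjusted p = 0.00587 and 0.00793). Uqcr10 had 133, 155 and 187 CPM in rhodamine-positive and 80.9, 112 and 144 CPM in rhodamine-negative libraries. Uqcrq had 177, 214 and 260 CPM in rhodamine-positive and 119, 163 and 207 CPM in rhodamine-negative libraries. Both sets of ranges overlapped, and both genes were higher in the rhodamine-positive library of 6 of 6 mice. The other pair that rose were Uqcrc1, a core protein, at 0.33 ± 0.09, and Uqcrfs1, the Rieske iron-sulfur protein, at 0.25 ± 0.08 (SE). Both calls were lost without mouse 3 or mouse 6, and that of Uqcrfs1 also without mouse 2.

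Uqcrh, the hinge protein beside cytochrome c1, had 96.7, 102 and 117 CPM in rhodamine-positive and 73.8, 98.9 and 128 CPM in rhodamine-negative libraries. The rhodamine-positive range lay inside the rhodamine-negative one, with an estimate of 0.10 ± 0.10 (SE; edgeR, adjusted p = 0.479). That estimate turned to -0.0595 with library size alone and to -0.0172 in male mice alone. Uqcrc2 and Uqcrb had estimates of 0.22 and 0.29 and did not pass (edgeR, adjusted p = 0.0808 and 0.0714).

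Complex IV, cytochrome c oxidase, had 16 tested members, of which 9 rose and 1 fell, with a median log2 fold change of 0.31. Of all genes tested, 13.1% were called higher and 13.2% lower. Several of its subunits exist as tissue isoforms from separate genes, and these are given beside each other. Cox4i1 (chr8:120668222-120674207), the widely expressed isoform of subunit IV, had 534, 613 and 700.3 CPM in rhodamine-positive libraries and 306, 460.0 and 571 CPM in rhodamine-negative libraries. The ranges overlapped but every mouse went the same way, with a log2 fold change of 0.45 ± 0.10 (SE; edgeR, adjusted p = 0.00632). Cox4i2, the isoform known from lung and low oxygen, had 0.686 to 1.67 CPM in rhodamine-positive and 0.702 to 1.61 CPM in rhodamine-negative libraries, with an estimate of 0.090 ± 0.36 that turned negative with library size alone (-0.0667) and without mouse 1 (-0.0203).

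Cox6b1 (chr7:30616861-30626151), the widely expressed isoform of subunit VIb, had 304, 342 and 359.9 CPM in rhodamine-positive and 196, 263 and 334 CPM in rhodamine-negative libraries. It rose by 0.43 ± 0.10 (SE; edgeR, adjusted p = 0.00724), with 1 rhodamine-negative library inside the rhodamine-positive range. Cox6b2 (chr7:4751792-4753094), the isoform known from testis, was the 1 member that fell. It had 0.442, 1.56 and 2.14 CPM in rhodamine-positive libraries and 1.97, 2.73 and 4.27 CPM in rhodamine-negative libraries, from 6 to 28 counts and 33 to 71 counts. The ranges overlapped slightly, it was lower in 5 of 6 mice, and it fell by 1.02 on the log2 scale (SE 0.34; edgeR, adjusted p = 0.0462). The call was lost without any one of mice 1 to 5, with the adjusted p between 0.073 and 0.123.

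Cox7a2 (chr9:79755361-79759878), the widely expressed isoform of subunit VIIa, had 99.6, 125 and 135 CPM in rhodamine-positive and 67.8, 89.2 and 117 CPM in rhodamine-negative libraries. It rose by 0.46 ± 0.09 (SE; edgeR, adjusted p = 0.00297). Its relative Cox7a2l, which acts in the assembly of respiratory supercomplexes, had 75.5, 93.8 and 101 CPM in rhodamine-positive and 72.4, 99.9 and 107 CPM in rhodamine-negative libraries. These ranges overlapped almost fully, with an estimate of -0.0444 ± 0.085 (SE; edgeR, adjusted p = 0.739) that was 0.0617 with the offset for gene length. With that offset the median of all genes was 0.12. The muscle isoform Cox7a1 was near its floor, at 1.27 to 2.67 CPM in rhodamine-positive and 0.912 to 2.65 CPM in rhodamine-negative libraries.

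Cox6a1, the widely expressed isoform of subunit VIa, had 219, 236 and 281 CPM in rhodamine-positive and 143, 189 and 249 CPM in rhodamine-negative libraries and rose by 0.36 ± 0.11 (SE; edgeR, adjusted p = 0.027). Cox6a2, the heart and muscle isoform, had 22.9, 29.6 and 50.5 CPM in rhodamine-positive and 11.8, 23.6 and 33.7 CPM in rhodamine-negative libraries. Its estimate of 0.54 ± 0.20 was the highest in complex IV and did not pass (SE; edgeR, adjusted p = 0.0678), whereas DESeq2 called it (adjusted p = 0.0232), as did edgeR without mouse 1 (adjusted p = 0.0426) or mouse 4 (adjusted p = 0.0316). The pair difference of Cox6a2 was 1.53 in mouse 5 and 1.04 in mouse 6, and it was higher in the rhodamine-positive library of 4 of 6 mice. Of the exonic bases of Cox6a2, 10.3% also lie in exons of other genes on either strand, the largest overlap being with Itgad.

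Cox8a, the isoform of subunit VIII found in most tissues, had 282, 335 and 373 CPM in rhodamine-positive and 224, 283 and 348 CPM in rhodamine-negative libraries. The groups overlapped widely and it rose by 0.28 ± 0.08 (SE; edgeR, adjusted p = 0.0309). Cox8a and Cox6a1 did not pass with library size alone or without the block. The call of Cox8a was lost without any one of mice 2 to 6, and that of Cox6a1 without any one of mice 2, 3, 5 and 6. Per kilobase of exon Cox8a stood highest of all tested members, with a median of 541 RPKM in rhodamine-positive and 458 RPKM in rhodamine-negative libraries, followed by Cox6b1 at 483 and 372 RPKM.

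Complex V, the ATP synthase, had 18 tested members, of which 14 rose and none fell, with a median log2 fold change of 0.38. Beside this, 13.1% of all genes tested were called higher and 13.2% lower. Its catalytic head carries alternating alpha and beta subunits. Atp5a1, the alpha subunit, had 586, 753 and 789 CPM in rhodamine-positive libraries, against 455, 491 and 553 CPM in rhodamine-negative libraries. Every rhodamine-positive library lay above every rhodamine-negative one, and the log2 fold change was 0.52 ± 0.09 (SE; edgeR, adjusted p = 0.00115). Atp5b (chr10:128083273-128090391), the catalytic beta subunit, had 946, 1177 and 1337 CPM in rhodamine-positive and 751, 797 and 955 CPM in rhodamine-negative libraries. A single pair of libraries overlapped, and it rose by 0.47 ± 0.08 (SE; edgeR, adjusted p = 0.00199).

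The gamma subunit Atp5c1 and the epsilon subunit Atp5e rose by 0.24 ± 0.08 and 0.33 ± 0.09 (SE; edgeR, adjusted p = 0.04 and 0.0173). Both calls were lost without mouse 3 or mouse 6, and that of Atp5c1 also without mouse 2 or mouse 5. Atp5d, the delta subunit, had an estimate of 0.21 ± 0.08 and did not pass (SE; edgeR, adjusted p = 0.0605). In the peripheral stalk, which holds the head still, 4 of 4 tested members rose: Atp5o, Atp5j, Atp5h and Atp5f1, at 0.29 to 0.50. Atp5o held its call without each mouse in turn, and the others lost it without mouse 6. Of the exonic bases of Atp5o, 47.9% also lie in exons of other genes on either strand, the largest overlap being with Gm15976. Reads there may be shared, as the strand setting is not given.

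The c-ring turns as protons pass, and its subunit c is encoded by separate genes whose mature protein is the same. Atp5g1, Atp5g2 and Atp5g3 rose by 0.41 ± 0.09, 0.39 ± 0.09 and 0.41 ± 0.09 (SE; edgeR, adjusted p = 0.00552, 0.00967 and 0.00499). Atp5g2 had 140.2, 149 and 160 CPM in rhodamine-positive and 81.8, 118 and 139.9 CPM in rhodamine-negative libraries, which did not overlap. Atp5g1 had 161, 203 and 222 CPM in rhodamine-positive and 115, 155 and 185 CPM in rhodamine-negative libraries. Atp5g3 had 211, 253 and 293 CPM in rhodamine-positive and 151, 188 and 245 CPM in rhodamine-negative libraries. The ranges of Atp5g1 and Atp5g3 overlapped between sorts. Atp5g2 did not pass with library size alone. Per length the medians were 41.4, 88.8 and 116 RPKM for Atp5g1, Atp5g2 and Atp5g3 in rhodamine-positive libraries, and 31.6, 70.5 and 86.3 RPKM in rhodamine-negative libraries. The lengths used were union exons of 4912, 1675 and 2181 bases. By CPM Atp5g1 stood above Atp5g2, so their order rests on these lengths.

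Atp5mpl (chr12:111961375-111966977), a small proteolipid associated with the synthase, had 110.1, 124 and 144 CPM in rhodamine-positive and 59.6, 85.6 and 124 CPM in rhodamine-negative libraries. The top rhodamine-negative library reached the middle of the rhodamine-positive range, and the log2 fold change was 0.55 ± 0.10 (SE; edgeR, adjusted p = 0.00226). Atp5l had an estimate of 0.23 and did not pass (edgeR, adjusted p = 0.0964), and neither did Atp5s, a factor related to the synthase, nor the pseudogene copy Atp5l2-ps. The estimate of Atp5l2-ps was 0.15 ± 0.41 and turned to -0.0049 with library size alone.

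The 12 members that were not tested had next to no reads. Ndufa4l2, a relative of Ndufa4 known from low oxygen, reached 15 counts in its highest library, Atp5l-ps1 reached 7, Ndufa11b and Cox8b reached 5, Atp5k-ps2 reached 3 and Atp5l-ps2 reached 2. The other 6 (Uqcrh-ps1, Uqcrh-ps2, Cox7b2, Cox8c, Atp5c1-ps and a second row named Atp5o) had 0 counts in 12 libraries. In all, 11 of the 97 rows are annotated as processed pseudogenes, and reads of such copies and of their parent genes may be divided between them in a way the sources used here do not give.

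The size of the difference varied between mice. The median log2 CPM difference over the subunits (rhodamine-positive minus rhodamine-negative, prior count of 2) was 0.090, 0.44, 0.35 and 0.19 in male mice 1 to 4 and 0.61 and 0.46 in female mice 5 and 6. The SD of these medians over mice was 0.19. The medians of the complexes in the fit ran from 0.31 to 0.39. Mouse 1 stood lowest, with 62 of 85 subunits above 0, and its complex IV median was -0.056 while its complex II median was 0.28. In mouse 5, 83 of 85 subunits were above 0.

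**Figure D3:**
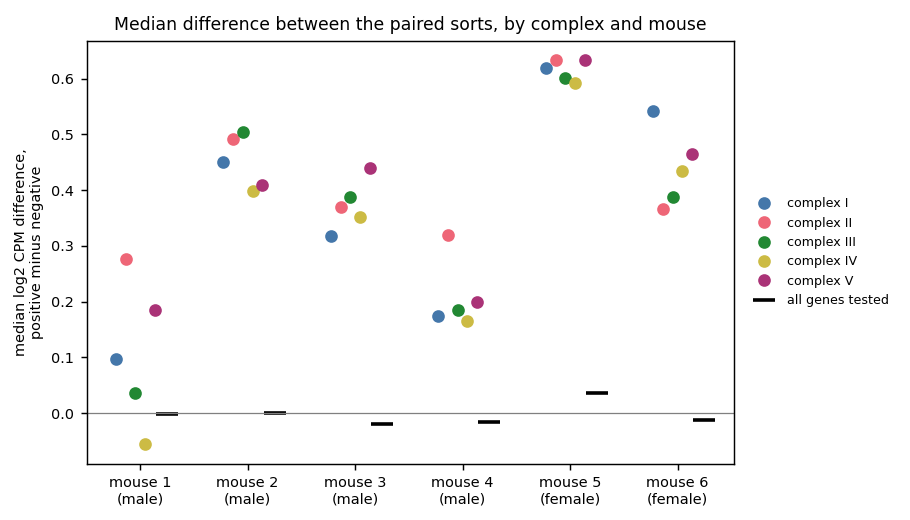
Median log2 CPM difference (rhodamine-positive minus rhodamine-negative) of the tested members of each complex, per mouse, with the median of all genes tested as a black bar. The points of mouse 1 run from -0.056 (complex IV, the 1 point below 0) to 0.28 (complex II), and those of mouse 5 from 0.59 to 0.63.

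The difference between the sexes was tested as a sort by sex interaction. In this test (edgeR's quasi-likelihood test, adjusted over all genes) 0 of 85 subunits and 0 of 15014 genes passed, and the lowest adjusted p among subunits was 0.567. At an unadjusted p under 0.05 there were 14 subunits and 1168 genes. In the 4 male mice alone, 17 subunits and 6.83% of all genes were called higher.

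Subunits outside the symbol rule were few. Cyc1, the cytochrome c1 of complex III, had 169, 184 and 208 CPM in rhodamine-positive and 113, 136 and 151 CPM in rhodamine-negative libraries. Its groups did not overlap, and it rose by 0.48 ± 0.08 (SE; edgeR, adjusted p = 0.00132). Ndufab1, the acyl carrier protein of complex I, rose by 0.43 ± 0.12 (SE; edgeR, adjusted p = 0.0203), a call lost without mouse 2 or mouse 6. Atpif1, the inhibitor of the ATP synthase, and Usmg5, a small synthase protein, had estimates of 0.24 each and did not pass (edgeR, adjusted p = 0.129 and 0.0703).

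The subunits encoded by mitochondrial DNA were not called. Of 13 listed, 10 were tested and 0 passed, with 1 at an unadjusted p under 0.05 (edgeR's quasi-likelihood test). DESeq2 and limma-voom also called 0, with 2 and 1 at an unadjusted p under 0.05. Their median log2 fold change was 0.25. The abundant mt-Nd1 of complex I had 956, 1328 and 1904 CPM in rhodamine-positive and 562, 1160 and 1715 CPM in rhodamine-negative libraries, with an estimate of 0.36 ± 0.16 (SE; edgeR, adjusted p = 0.121). For mt-Co1, the catalytic subunit of complex IV, the estimate was 0.15 ± 0.12 (SE; edgeR, adjusted p = 0.407).

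The mitochondrial call depended on the setting. Without mouse 4, 5 of these subunits and 11.9% of all genes were called higher. With the offset for length and GC content there were 7, where 24.8% of all genes were called higher and their median was 0.12. Together they took 0.523%, 0.678% and 0.912% of counts in rhodamine-positive and 0.411%, 0.725% and 0.971% in rhodamine-negative libraries, and the share was higher in the rhodamine-positive library of 4 of 6 mice. Selection of polyadenylated RNA and near-identical nuclear copies limit these values. The difference between nuclear and mitochondrial subunits was not tested.

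Factors that build the complexes were counted the same way. Of 15 assembly factors of complex I, 2 rose (Ndufaf3 and Ndufaf8, at 0.29 and 0.33), with a median log2 fold change of 0.19. Of 31 tested assembly factors of complexes II to V, 4 rose and 1 fell, with a median of 0.18. The shares called higher, 13.3% for complex I and 12.9% for the others, stood near the 13.1% of all genes. Those that rose were Uqcc2, which acts on complex III, and Coa3, Coa5 and Coa7, which act on complex IV, at 0.38 to 0.52. Cox17, the copper chaperone of complex IV, had 1.06, 2.54 and 4.01 CPM in rhodamine-positive and 4.09, 4.75 and 10.9 CPM in rhodamine-negative libraries and fell by 1.26 on the log2 scale (SE 0.29; edgeR, adjusted p = 0.00753). With library size alone none of the complex I factors was called. The offset for length and GC content gave 9 complex I factors and 12 of the others called higher, and the length offset 7 and 12, where 24.8% and 24.3% of all genes were called higher. Ndufaf3, Ndufaf8 and Coa7 lost the call without any one of mice 1, 2, 3, 5 and 6, and Coa7 also without mouse 4, while Uqcc2, Coa3, Coa5 and Cox17 held it without each mouse in turn.

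The next list held carriers that feed and drain the chain. Of 21 such genes, 10 rose and 1 fell, and the median log2 fold change was 0.24. The 10 make 47.6% of the list, beside 13.1% of all genes called higher and 13.2% lower. Slc25a4 and Slc25a5, the exchangers of ADP and ATP, rose by 0.52 ± 0.10 and 0.40 ± 0.11, and the outer membrane channels Vdac1 and Vdac2 by 0.27 ± 0.09 and 0.30 ± 0.09 (SE; edgeR, adjusted p = 0.00343, 0.0177, 0.0441 and 0.0239). Etfa, Etfb and Etfdh, which pass electrons from fatty acid oxidation to ubiquinone, rose by 0.32, 0.50 and 0.45. In ubiquinone synthesis Coq7 rose by 0.81 ± 0.14 and Coq2 fell by 0.75 (SE 0.24; edgeR, adjusted p = 0.00169 and 0.0353). Coq4 and Coq6 of the same pathway rose by 0.40 ± 0.13 and 0.36 ± 0.11 (SE; edgeR, adjusted p = 0.0378 and 0.0358). Cycs, cytochrome c itself, had an estimate of 0.080 ± 0.087 (SE; edgeR, adjusted p = 0.529). With library size alone, 3 of the 21 were called higher and 2 lower, where 5.73% of all genes were called higher. Slc25a4, Etfdh and Coq7 held the call without each mouse in turn, and the others of the list that passed lost it without at least mouse 6.

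Of 13 tested regulators of mitochondrial biogenesis, 1 rose and 1 fell, with a median log2 fold change of -0.045. That is 7.69% in each direction, beside 13.1% of all genes called higher and 13.2% lower. Gabpa, the DNA-binding chain of GABP, rose by 0.27 ± 0.09 (SE; edgeR, adjusted p = 0.0447), a call that was lost without any one of mice 1 to 4 or mouse 6. None of these regulators was called higher with DESeq2, with RLE scaling, with library size alone or without the mouse as a block. Esrra, which encodes ERR alpha, fell by 0.45 (SE 0.13; edgeR, adjusted p = 0.0212) and did not pass without mouse 3 or mouse 5. The estimates for Nrf1 and Tfam were -0.13 ± 0.10 and -0.011 ± 0.13 (SE; edgeR, adjusted p = 0.375 and 0.963). Of 7 genes of uncoupling and other routes into the chain, none rose and 1 fell, Gpd2, the mitochondrial glycerol phosphate dehydrogenase, by 0.64 (SE 0.13; edgeR, adjusted p = 0.00347). Without the block Gpd2 did not pass (adjusted p = 0.0823). DESeq2 called 2 of the 7 higher, beside 13.4% of all genes. The offsets for length or for length and GC content called 5 each, where 24.3% and 24.8% of all genes were called higher.

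**Figure D4:**
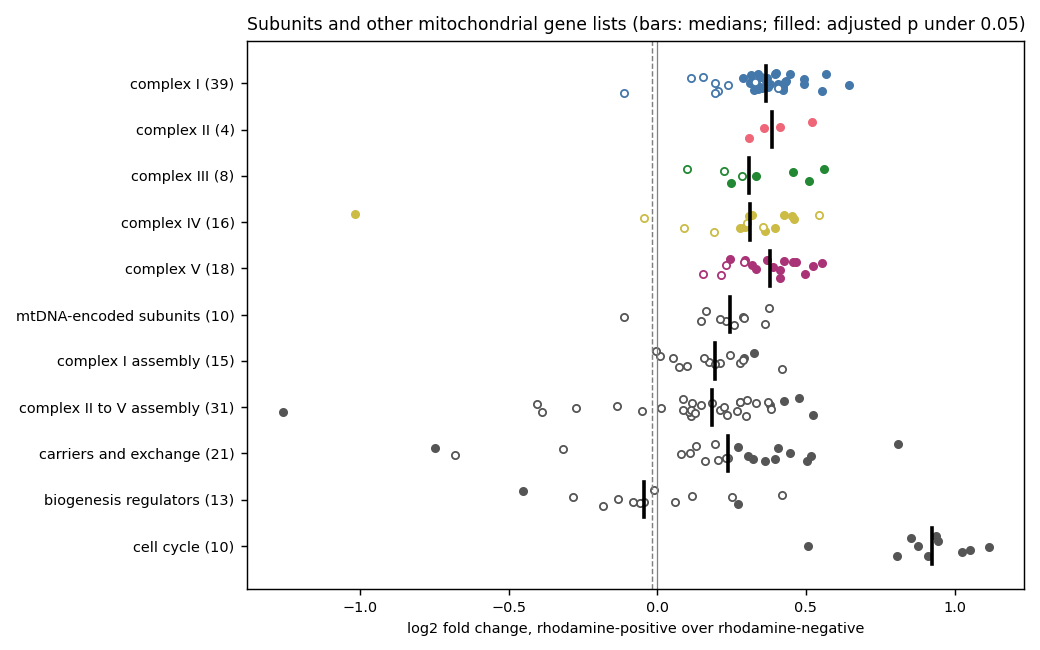
Log2 fold change (rhodamine-positive over rhodamine-negative) of the tested members of each complex and of other mitochondrial and cell cycle gene lists, with numbers tested in brackets, medians as bars and filled points for genes that passed. Medians of the complexes lie between 0.31 and 0.39, that of the biogenesis regulators at -0.045 and that of the cell cycle genes at 0.93.

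Other properties moved with the subunits. Beside the counts of calls that follow, 13.1% of all genes tested were called higher and 13.2% lower. All 10 cell cycle genes listed rose, with a median log2 fold change of 0.93, among them Mki67 at 0.51 ± 0.10 and Top2a at 0.91 ± 0.09 (SE; edgeR, adjusted p = 0.00367 and 5.4e-05). Of 8 immediate early genes of dissociation, 6 were called lower, with a summed level of 6798 to 10297 CPM in rhodamine-positive and 10676 to 15817 CPM in rhodamine-negative libraries. Of 6 markers of the oligodendrocyte lineage and glioma, 4 were called lower, with sums of 32.1 to 76.7 CPM in rhodamine-positive and 74.4 to 115 CPM in rhodamine-negative libraries. Of other blood cell types, 6 NK and T cell markers summed to 2.22 to 9.94 CPM in rhodamine-positive and 40.6 to 86.9 CPM in rhodamine-negative libraries, and the 1 tested was called lower. Sums of 4 basophil and mast cell markers were 0 to 19.5 CPM in rhodamine-positive and 5.08 to 365 CPM in rhodamine-negative libraries, with 2 of 2 tested called lower. For 5 B and plasma cell markers the sums were 21.8 to 40.9 CPM in rhodamine-positive and 29.2 to 78.1 CPM in rhodamine-negative libraries, with 2 of 4 tested called lower. Neutrophil markers, 4 in number, summed to 0.952 to 5.68 CPM in rhodamine-positive and 0.541 to 4.565 CPM in rhodamine-negative libraries. The 1 neutrophil marker tested was called higher. Among 4 erythroid markers 2 were tested and none was called. The part of these and of the dendritic cell and monocyte markers in the subunit result was not tested.

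Subunit genes are short. The median exonic length was 1495 bases for the 85 subunits and 3806 for all genes tested. Among 1610 other genes of at most 2313 exonic bases with at least 10 CPM, 27.7% were called higher. The median log2 fold change of these 1610 genes was 0.18. Of subunits of at least 10 CPM, with no cut on length, 62 of 76 were called higher, with a median of 0.37. Both sets shared the floor of 10 CPM, and levels above it were not matched. Of 79 tested cytosolic ribosomal protein genes, which are also short and abundant, 4 rose, with a median of 0.12. A length offset recentred so that it left the overall scale in place, chosen after seeing the data, gave 62 subunits and 13.6% of all genes called higher, with a subunit median of 0.33.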

How the data were processed

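The raw counts used here were deposited by the authors per gene, as 1 table and as a file for each library, beside log2 values that they had normalized. The submitters' processing notes name mm10 and, with no roles, limma, edgeR, featureCounts 1.4.4, HISAT2 2.1.0, cutadapt and bcl2fastq 2.17. Parameters and the strand setting are not given in the sources used here, so reads of overlapping genes may be shared. Values in the 12 count files were identical to those in the table. The deposited log2 values, for 10605 genes, entered an alternative only.

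Computed here: genes were filtered with edgeR's filterByExpr by group (minimum count 10, minimum total 15), which left 15014. Libraries were scaled by TMM, and CPM and RPKM are on that scale, RPKM per kilobase of union exon (GENCODE vM21, GRCm38). The test was edgeR 4.0.16 (R 4.3.3) quasi-likelihood, robust, with the mouse as a block. The SE is the log2 fold change over the square root of its F statistic. Complexes were taken from the symbols. The members and lists were chosen with earlier results of these data known. The members named are, per complex, those with the smallest p, the lowest estimate and the highest level per length, plus all Sdh genes, genes with several copies and any member that fell; other names were chosen after values were seen. Values of some single members are not reported here. RefSeq windows matched 67 of 85 tested members.

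Both sorts came from the same animals, per the series' design text. Deviations from group means correlated within mice 1 to 6 at r = 0.226, 0.207, 0.289, 0.0775, 0.302 and 0.45, across genes, and the pair of mouse 4 lay under its highest value with another mouse (0.187). No library was a copy of another: chi-square per degree of freedom was at least 17.5. On simulated counts for this comparison (14735 genes), 5% of 100 genes changed by 0.3 (log2) and 92% of 100 changed by 1 were recovered, with 7 false among 104 calls. Alternatives used DESeq2 1.42.0, limma 3.58.1 and, for length and GC offsets, mgcv 1.9.3.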

Additional observations from a re-analysis of the deposited data

Results flagged for a closer look

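The levels of the named members in each sort, and the median differences of the subunits and of each complex over the mice, gave 66 groups of 6 values. These were checked for a value far from the others, of which chance flags about 1 in 20, and 2 were found. Ndufa12, an accessory subunit of complex I, had 133.9 CPM in the rhodamine-positive library of mouse 6, while the other rhodamine-positive libraries had 80.2 to 95.4 CPM. Its log2 fold change kept its call without mouse 6. Cox4i2, the isoform of complex IV at low level, had 1.611 CPM in the rhodamine-negative library of mouse 6, while the other rhodamine-negative libraries had 0.702 to 0.963 CPM.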

How the results depend on the processing

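The report gives the number of subunits called higher under each setting. Against 62, it moved beyond 1.5 times at an adjusted p of 0.01 (32), with library size alone (21), in male mice (17), for a minimum fold of 1.2 (10), with no replicate block, that is, without the pairing (35), and without mouse 6 (37). With each mouse left out it was 37 to 68. The 1 lower call (Cox6b2) became 0 at an adjusted p of 0.01, with the length offset, in male mice, at a minimum count of 50, for a minimum fold of 1.2 and with no replicate block, and it was 0 to 1 with each mouse left out. Of mitochondrially encoded subunits, 7 were called with the length and GC offset, 2 with the length offset and 4 with no filter, against 0, and 0 to 5 with each mouse left out. The complex II median was 0.23 with library size alone. Over all genes, the length offset gave 3652 higher and 1444 lower. Estimates that changed sign were Ndufa6 (0.0031, length offset), Cox7a2l (0.0603 with length and GC, 0.0617 with length), Uqcrh (-0.0595 with library size alone, -0.0172 in male mice), Atp5l2-ps (-0.0049, library size alone) and Cox4i2 (-0.0667 with library size alone, -0.0203 to 0.20 with each mouse left out, negative without mouse 1). With the length offset, or the length and GC offset, the median of all genes was 0.12, against -0.020 in the main fit. With the recentred length offset all 30 named members kept their sign and their side of the threshold. Causes were not tested, beyond fewer samples and stricter thresholds by construction. The simulation held no differences between mice and far fewer changed genes than the data. It gave 104 calls, against 1973 higher and 1988 lower here, so its adjusted threshold was the stricter one. Its low recovery at 0.3 is therefore not the recovery of the fit used here. Subunits that did not pass are still not shown to be level.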
